A study of Mus musculus with 8 samples.

Results

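Coagulation and fibrinolysis genes, 9 in all, that start, restrain or respond to clotting and plasmin formation were followed in KPC pancreatic tumors. They were taken by gene name from the deposited table and are 9 of its 29968 genes. F3 encodes tissue factor and Tfpi its inhibitor. Thbd and Procr encode thrombomodulin and the endothelial protein C receptor. Plau, Plat and Plaur encode urokinase, tissue plasminogen activator and the urokinase receptor, and F2r and F2rl1 encode the protease-activated receptors PAR1 and PAR2. All 9 genes passed the filter on low counts, and the lowest count of any of them in a tumor was 115, for Tfpi.

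Tissue factor on a cell surface binds factor VIIa and begins the cascade that yields thrombin, and TFPI shuts that complex off. Thrombin bound to thrombomodulin activates protein C, a step that the protein C receptor speeds, and free thrombin cleaves PAR1. Urokinase and tissue plasminogen activator turn plasminogen into the fibrin-degrading protease plasmin. Pancreatic cancer is known for tissue factor expression by its tumor cells and for a high rate of venous thrombosis.

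RNA was sequenced from tumors of 4 WT hosts (C57BL/6J) and 4 C3-/- hosts (complement C3 null), all male, 12 weeks old, and collected at day 14 after 250000 murine KPC cells in 50 μL of PBS were placed in the pancreas. KPC cells are a line from a single mouse pancreatic tumor, so the cancer cells in both groups kept C3 and only host cells differed in genotype. The comparison asks whether loss of host C3 changed the tumor transcriptome. The series' design text calls the 4 tumors of a group biological replicates.

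Total counts were 13.3 to 23.4 M per tumor. C3 was at 210, 426, 226 and 324 CPM (counts scaled to library size) in the WT tumors and at 109, 134, 100 and 101 CPM in the C3-/- tumors. The groups did not overlap for C3, with a log2 fold change (C3-/- minus WT) of -1.42 (SE 0.23), which DESeq2 called and edgeR did not (adjusted p = 0.933), and its counts in C3-/- hosts can include those of the injected cells. Summed pancreatic tumor epithelium markers were at 6730 to 11100 CPM with WT hosts and 5970 to 9830 CPM with C3-/- hosts, so the labelled tissue carried its markers. Skeletal muscle markers ranged from 14.5 to 4180 CPM (WT) and from 23.7 to 3710 CPM (C3-/-). Acinar markers ranged from 212 to 637 CPM (WT) and from 42.1 CPM to 2280 CPM (C3-/-), the highest in C3-/- replicate 1.

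RefSeq promoter windows were found for 5 of the 9 genes (F3, Tfpi, Procr, Plaur and F2r), with 6 windows in all, since Tfpi had 2. Thbd, Plau, Plat and F2rl1 were not matched. The 250 bases before the start site were searched on both strands for the TATA box (letters TATAAA), the GC box (letters GGGCGG), the AP-1 motif (letters TGANTCA) and the hypoxia response core (letters ACGTG). The windows of F3, Procr, Plaur and F2r, shown because all held the AP-1 motif, are given 5′ to 3′ on the gene's strand with GC boxes and AP-1 motifs in capitals. F3 lies at chr3:121723287-121723536 (plus strand), Procr at chr2:155750967-155751216 (plus), Plaur at chr7:24462233-24462482 (plus) and F2r at chr13:95618467-95618716 (minus), in GRCm38.p6.
F3: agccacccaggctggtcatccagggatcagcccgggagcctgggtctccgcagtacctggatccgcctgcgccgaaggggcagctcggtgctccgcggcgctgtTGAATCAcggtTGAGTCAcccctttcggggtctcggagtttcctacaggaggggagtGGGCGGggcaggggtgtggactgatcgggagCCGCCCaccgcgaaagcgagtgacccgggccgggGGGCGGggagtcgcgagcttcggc
Procr: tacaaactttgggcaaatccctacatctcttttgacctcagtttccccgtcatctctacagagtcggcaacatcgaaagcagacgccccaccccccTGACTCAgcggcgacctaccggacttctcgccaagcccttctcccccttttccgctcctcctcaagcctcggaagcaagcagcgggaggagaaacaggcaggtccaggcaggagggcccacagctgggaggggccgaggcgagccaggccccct
Plaur: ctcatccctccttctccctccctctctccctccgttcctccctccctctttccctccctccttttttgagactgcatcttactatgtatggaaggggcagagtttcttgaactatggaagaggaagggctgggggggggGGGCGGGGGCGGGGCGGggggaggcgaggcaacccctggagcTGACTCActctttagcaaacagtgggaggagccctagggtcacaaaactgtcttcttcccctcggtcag
F2r: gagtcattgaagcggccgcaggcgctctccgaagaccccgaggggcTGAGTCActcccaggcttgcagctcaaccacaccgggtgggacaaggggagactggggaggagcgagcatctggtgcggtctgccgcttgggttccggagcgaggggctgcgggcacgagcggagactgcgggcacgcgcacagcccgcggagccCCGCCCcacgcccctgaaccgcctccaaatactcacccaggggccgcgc

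The F3 window held AP-1 motifs starting at positions -146 and -135 and GC boxes at -89, -58 and -24, counted back from the start site. Plaur held an AP-1 motif at -69 after GC boxes at -111, -105 and -100, which run into each other. Procr held an AP-1 motif at -154 and no GC box. F2r held an AP-1 motif at -204 and a GC box at -49. TGANTCA occurred in 4 of the 6 windows and in 6.75% of all 32851 RefSeq windows of this length. GGGCGG occurred in 5 of 6 against 32.7%, TATAAA in 1 of 6 (Tfpi) against 12.4%, and ACGTG in 0 of 6 against 16.6%. These matches are letters in a window and no binding was measured.

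Levels per gene length, in FPKM (read pairs per kilobase of gene, scaled to library size), placed PAR1 first and the tissue factor inhibitor last. F2r had a median of 131 FPKM over the 8 tumors (102 to 172), Plat 86.7 FPKM, F3 57.0 FPKM, Plaur 48.4 FPKM and F2rl1 46.0 FPKM. Plau followed at 17.4 FPKM, Procr at 15.1 FPKM, Thbd at 7.62 FPKM and Tfpi at 1.84 FPKM (1.32 to 2.23). F2r stood at the 98.2 percentile of the genes tested and Tfpi at the 29.6 percentile.

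Of the 8 neighbouring pairs in this order, 5 differed by an exact two-sided sign-flip test over the 8 tumors (adjusted p = 0.0125 for each, n = 8; the smallest unadjusted p that 8 tumors allow is 0.00781). The order, and so the choice of pairs, came from the same FPKM values, so these p-values are no independent support for it. F2r exceeded Plat, Plat exceeded F3, F2rl1 exceeded Plau, Procr exceeded Thbd and Thbd exceeded Tfpi in 8 of 8 tumors. F3 and Plaur (adjusted exact p = 0.0536), Plaur and F2rl1 (adjusted exact p = 0.0859), and Plau and Procr (adjusted exact p = 0.0536) did not pass, with the first gene higher in 6 of 8 tumors in each pair.

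**Figure D1:**
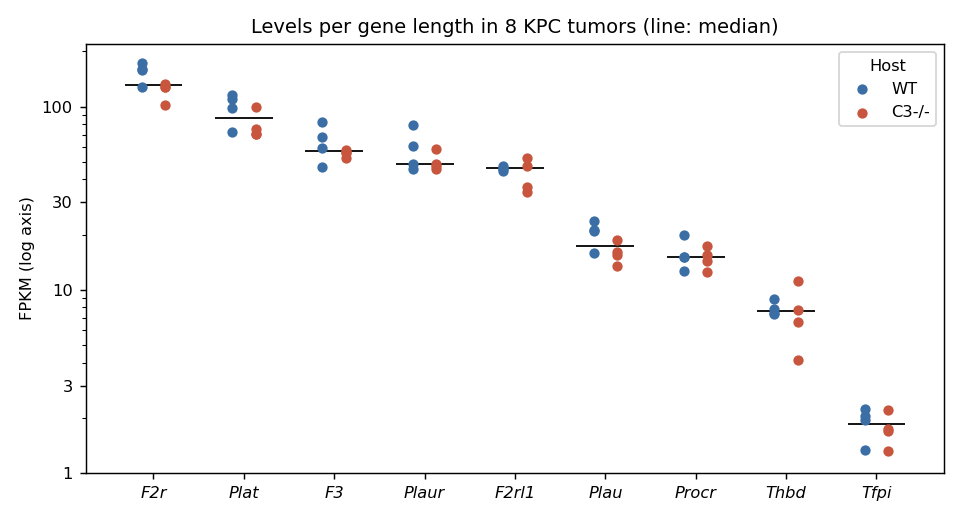
FPKM of each gene in each tumor on a log axis, with blue points for WT hosts, red points for C3-/- hosts and a line at the median of all 8 tumors. The order runs from F2r at 131 FPKM to Tfpi at 1.84 FPKM, and the ranges of the 2 host genotypes overlap for every gene.

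None of the 9 genes differed between host genotypes in edgeR's quasi-likelihood test with Benjamini-Hochberg adjustment over 16610 genes. Among all genes tested, 0 were called, or 0.0%. DESeq2 also called 0 of the 9, beside 16 of 20024 genes with an adjusted p (0.0799%). Plau and F2r, or 2 of 9, had an unadjusted p below 0.05, both lower in C3-/- tumors, while 5.11% of all genes had such a p and 2.07% had one with a lower level. The groups overlapped for all 9 genes, and 3.73% of all genes had groups that did not overlap. All 9 log2 fold changes were below 0 with a median of -0.20, whereas 50.0% of all genes had a value below 0. These 9 values come from the same 8 tumors and are not independent of each other. In bulk tumor RNA, fewer cells of a type and less RNA per cell cannot be told apart.

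**Figure D2:**
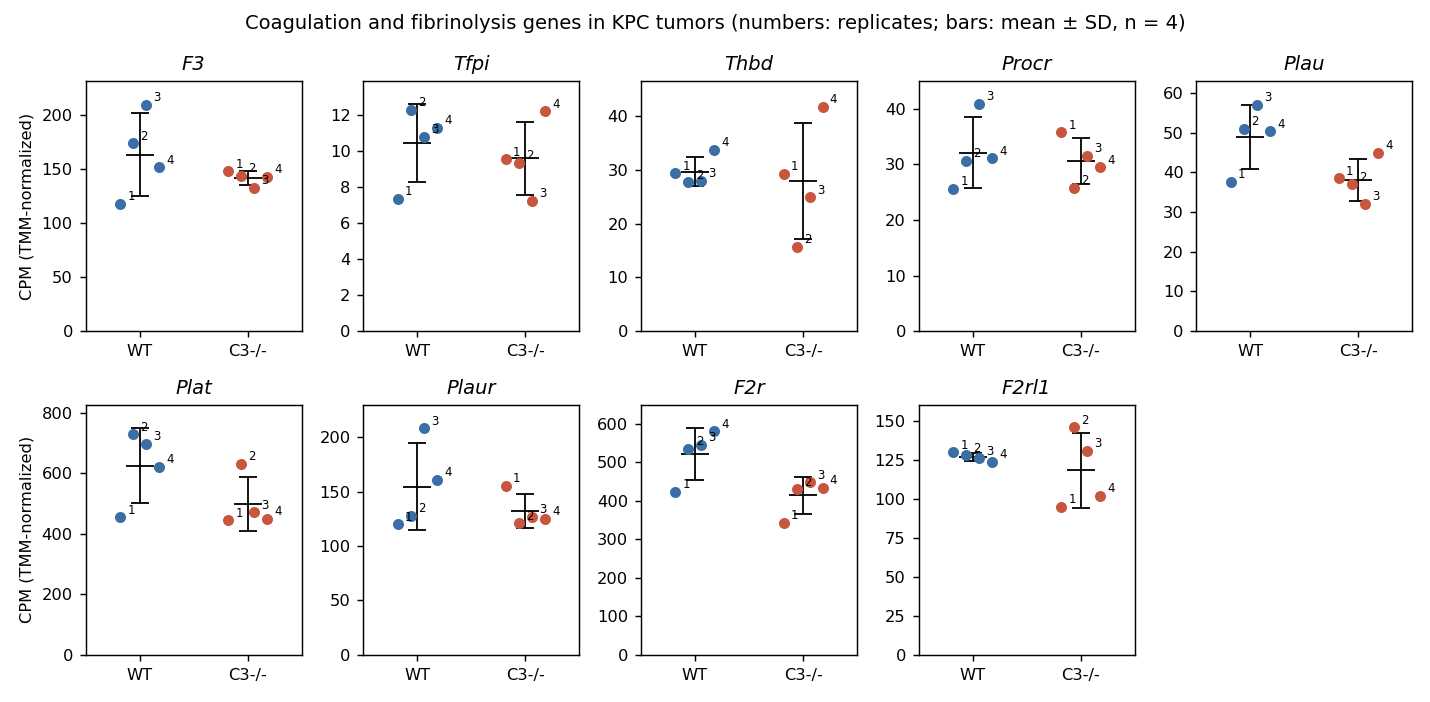
CPM of the 9 genes in each tumor, with points numbered by replicate, a bar at the mean and whiskers of 1 SD (n = 4 per host genotype), each axis from 0. The WT and C3-/- points overlap in every panel.

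Tissue factor and its inhibitor overlapped between hosts. F3 (chr3:121517186-121528697 in mm39, plus strand) was at 118, 174, 210 and 152 CPM in WT tumors 1 to 4 and at 148, 144, 133 and 143 CPM in C3-/- tumors 1 to 4. The C3-/- tumors all lay inside the WT range, and the coefficient of variation was 23.6% in WT and 4.59% in C3-/- tumors, a difference in spread that was not tested. The log2 fold change of F3 was -0.20 (SE 0.17, 95% interval -0.57 to 0.16), with an adjusted p of 0.999 in edgeR. Tfpi (chr2:84263199-84307119, minus strand) was at 7.34, 12.3, 10.8 and 11.3 CPM in WT and at 9.55, 9.35, 7.25 and 12.2 CPM in C3-/- tumors. Its lowest tumors were one from each host, WT 1 and C3-/- 3, and its log2 fold change was -0.12 (SE 0.23, interval -0.62 to 0.38). The ratio of F3 to Tfpi in FPKM ran from 25.3 in C3-/- 4 to 42.2 in WT 3. Its log2 value differed by -0.06 between genotypes (exact two-sided permutation p = 0.771, n = 4 per group).

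The protein C pathway receptors were close to even between hosts. Thbd (chr2:148246386-148250108, minus strand), which makes thrombin an activator of protein C, was at 29.4, 27.7, 28.0 and 33.7 CPM in WT and at 29.3, 15.7, 24.9 and 41.8 CPM in C3-/- tumors. Both the lowest and the highest tumor were C3-/- (replicates 2 and 4), and the coefficient of variation was 38.8% there against 9.28% in WT. The log2 fold change was -0.09 (SE 0.25, interval -0.65 to 0.47) and was 0.11 without C3-/- replicate 2. Procr (chr2:155593037-155597391, plus strand), which holds protein C at the cell surface, was at 25.6, 30.7, 40.9 and 31.1 CPM in WT and at 35.8, 25.8, 31.5 and 29.5 CPM in C3-/- tumors. WT tumors held both ends of the Procr range, and the log2 fold change was -0.07 (SE 0.17, interval -0.44 to 0.31), turning to 0.07 without WT replicate 3 and to 0.01 without C3-/- replicate 2. The log2 ratio of Thbd to Procr differed by -0.12 (exact permutation p = 0.743, n = 4 per group).

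Urokinase had the lowest mean relative to WT of the 9 genes, and none of the activators or their receptor passed the test. Plau (chr14:20886728-20893453, plus strand), which encodes urokinase, was at 37.6, 50.9, 56.9 and 50.3 CPM in WT and at 38.5, 37.0, 32.1 and 44.9 CPM in C3-/- tumors. WT tumors 2, 3 and 4 were above every C3-/- tumor, and WT 1 fell among the C3-/- tumors. The C3-/- mean was 77.9% of the WT mean, 38.1 ± 5.31 against 48.9 ± 8.10 CPM (SD, n = 4 each), with a log2 fold change of -0.36 (SE 0.16, interval -0.715 to -0.005), an adjusted p of 0.971 by edgeR and one of 0.89 by DESeq2. Plat (chr8:23247743-23272860, plus strand), tissue plasminogen activator, was at 454, 729, 697 and 622 CPM in WT and at 445, 632, 471 and 449 CPM in C3-/- tumors. WT 1 again sat with the C3-/- tumors and C3-/- 2 with the WT tumors, and the log2 fold change was -0.33 (SE 0.18, interval -0.73 to 0.08, adjusted p of 0.985 in edgeR) and -0.46 without C3-/- 2. Plaur (chr7:24161909-24175393, plus strand), the receptor that holds urokinase on cells, was at 120, 128, 208 and 161 CPM in WT and at 155, 121, 127 and 125 CPM in C3-/- tumors. WT 3 was the highest Plaur tumor and WT 1 the lowest, with a log2 fold change of -0.22 (SE 0.18, interval -0.62 to 0.18). The number of the 9 genes with an unadjusted p below 0.05, which was 2 over all tumors, changed with the tumors entered. It was 4 (F3, Plau, Plat and F2r) without WT replicate 1, beside 4.49% of all genes, and none had an adjusted p below 0.995 there in edgeR. It was 0 without WT replicate 2, 3 or 4, beside 5.20%, 4.66% and 3.91% of all genes, 0 without C3-/- replicate 1 or 3, beside 10.7% and 2.73%, and 1 without C3-/- replicate 2 or 4, beside 4.79% and 3.91%. The log2 fold changes behind these p-values stayed below 0, from -0.47 to -0.28 for Plau and from -0.42 to -0.25 for F2r. With the muscle level as a covariate the number was 0, beside 4.54% of all genes, with Plau at -0.33 and F2r at -0.32, and with the mesothelial level it was 0, beside 2.52%.

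Within a tumor, the log2 ratio of Plau to Plat differed by -0.04 (exact permutation p = 0.971, n = 4 per group) and Plau to Plaur by -0.16 (exact permutation p = 0.429, n = 4 per group). Of the 5 ratios of one gene to another compared between genotypes, 0 passed, the adjusted p ran from 0.964 to 0.971, and the smallest unadjusted p that 4 against 4 tumors allow is 0.0286.

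PAR1 and PAR2, the receptors that thrombin and trypsin-like proteases cleave, are neighbours on chromosome 13, 76.6 kb apart with Gm48730 between them. F2r (chr13:95738311-95754995, minus strand) was at 423, 535, 544 and 580 CPM in WT and at 343, 429, 448 and 434 CPM in C3-/- tumors. WT tumors 2, 3 and 4 exceeded every C3-/- tumor, and WT 1 lay below 3 of them. The C3-/- mean was 79.4% of the WT mean, 413 ± 47.8 against 521 ± 67.8 CPM (SD, n = 4 each), with a log2 fold change of -0.33 (SE 0.14, interval -0.654 to -0.010), an adjusted p of 0.971 by edgeR and one of 0.834 by DESeq2. C3-/- 1, the lowest F2r tumor, was also the tumor with 2280 CPM of acinar markers, and the log2 fold change of F2r was -0.25 without it and -0.46 with the acinar level as a covariate. F2rl1 (chr13:95648240-95661735, minus strand) was at 130, 128, 126 and 124 CPM in WT and at 94.9, 146, 131 and 102 CPM in C3-/- tumors. The WT values of F2rl1 were nearly identical, with a coefficient of variation of 2.22%, and the C3-/- values, with 20.5%, lay on both sides of them. Its log2 fold change was -0.10 (SE 0.15, interval -0.43 to 0.22). The FPKM ratio of F2r to F2rl1 ran from 2.41 to 3.85, and its log2 value differed by -0.20 between genotypes (exact permutation p = 0.286, n = 4 per group).

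Other genes of clotting and plasmin formation, of platelets and of the response to protease-activated receptors were read from 8 lists by role. Of 56 genes listed, 52 were in the table and 40 were tested, of which 0 were called by edgeR, 9 had a log2 fold change above 0 and 31 below, with a median of -0.15 beside 0 over all genes. Of these, 3 had an unadjusted p below 0.05, beside 5.11% of all genes. Among the same 40 genes with a tumor left out, that number ran from 1 (without WT replicate 4 or C3-/- replicate 3) to 6 (without C3-/- replicate 1), and was 5 without WT replicate 1, beside 3.91%, 2.73%, 10.7% and 4.49% of all genes in that order. It was 5 under DESeq2, beside 5.71% of all genes, 5 in edgeR without the filter on low counts, beside 4.82%, and 0 with the mesothelial covariate, beside 2.52%. Ggcx, the carboxylase of vitamin K-dependent factors, was at 22.5 to 31.5 CPM in WT and 27.5 to 44.2 CPM in C3-/- tumors (log2 fold change 0.44, adjusted p of 0.971 in edgeR). Gp1ba, part of the platelet receptor for von Willebrand factor, was at 1.96 to 2.49 CPM in WT and 0.63 to 1.62 CPM in C3-/- tumors, with no overlap (log2 fold change -0.99, adjusted p of 0.964 in edgeR). Fgb, the fibrinogen beta chain made by liver, had 15, 2, 25 and 320 counts in WT and 0, 11, 0 and 1 counts in C3-/- tumors, so that WT 4 supplied most of its reads (adjusted p of 0.936 in edgeR). Fga and Fgg, the other fibrinogen chains, F2 (prothrombin) and Plg (plasminogen) did not pass the filter in edgeR and had unadjusted p-values below 0.05 in DESeq2, none of them with an adjusted p below 0.05. Their highest counts, 222, 195, 31 and 25, were all in WT 4, and the C3-/- tumors had 0 to 5 counts. Over all 52 genes in the table, these low genes included, 9 had an unadjusted p below 0.05 in DESeq2. In edgeR without the filter 10 had one. No share over all genes of that wider set was computed, so these counts have no background beside them. Kng1 and Ppbp, which passed the filter, had an unadjusted p below 0.05 in DESeq2 and not in edgeR. Their log2 fold changes were -2.16 and -0.995, with an adjusted p of 0.971 and 0.973 in edgeR.

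**Figure D3:**
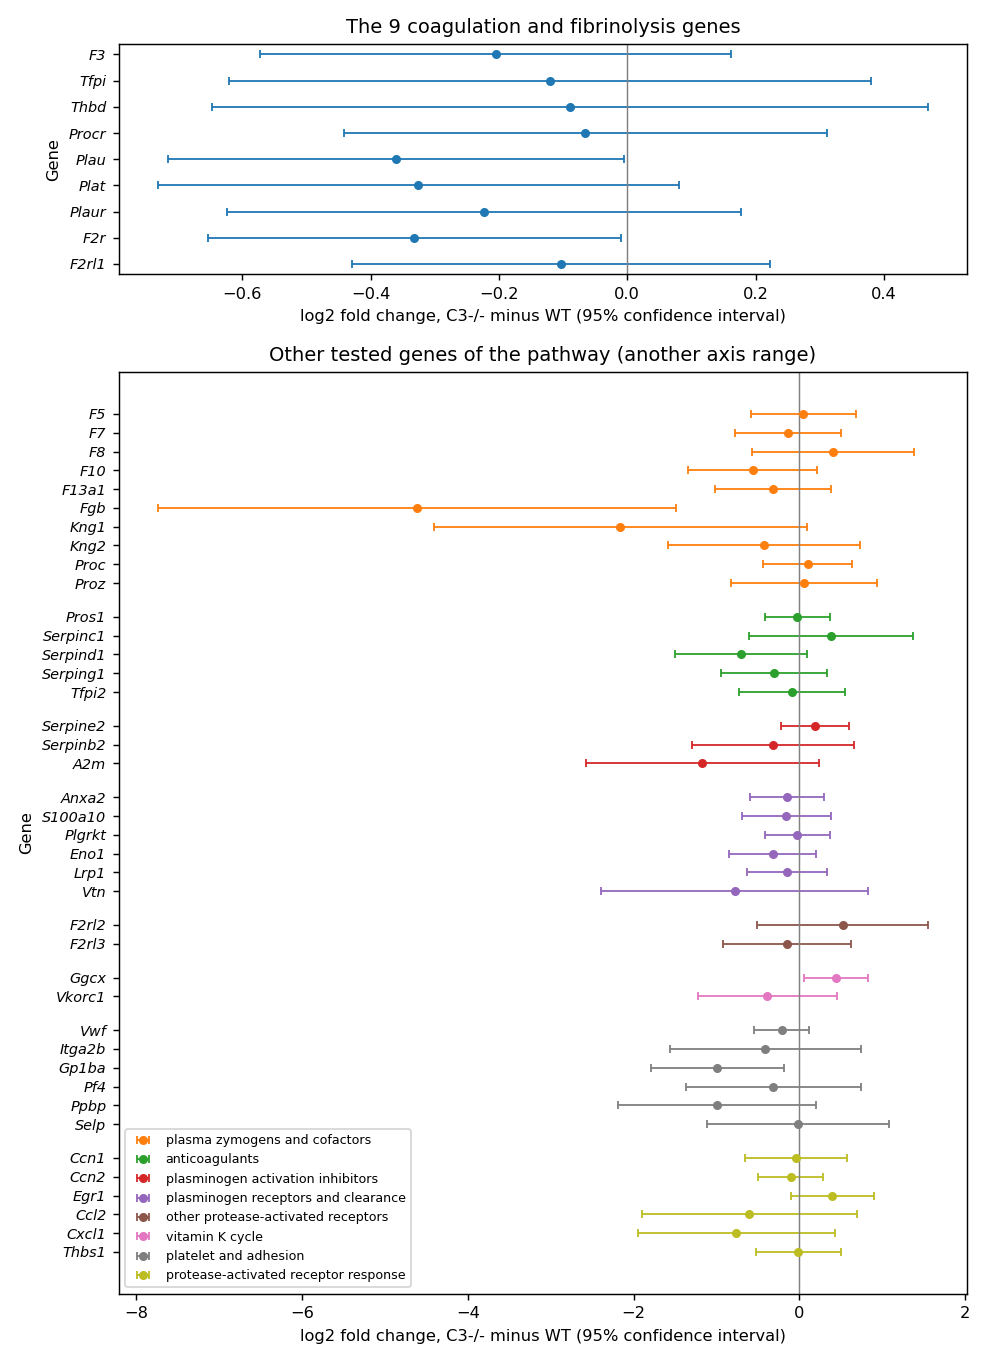
Log2 fold changes (C3-/- minus WT) with 95% confidence intervals from edgeR for the 9 genes in the upper panel and, on another axis range, the 40 tested genes of the pathway lists in the lower panel, coloured by list. All 9 points of the upper panel lie below 0, and only the intervals of Plau and F2r stop short of it.

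Of the marker lists, those of mesothelial cells and hepatocytes had the lowest median log2 fold changes, and 0 genes of either list were called by edgeR. All 4 tested mesothelial markers had log2 fold changes below 0, with a median of -0.95. Of 6 tested hepatocyte markers, 5 were below 0, with a median of -1.24, and their sums were at 70.3 to 652 CPM in WT and 40.9 to 173 CPM in C3-/- tumors. A single gene, Hp, set both upper ends, at up to 635 and 147 CPM, while Alb, the serum albumin gene, reached 35.7 CPM, in WT 4. Ahsg, a liver gene, did not overlap (0.871 to 7.32 against 0.112 to 0.421 CPM, adjusted p of 0.933 in edgeR). Upk3b (2.43 to 4.85 CPM in WT, 0.883 to 2.34 CPM in C3-/- tumors) and Lrrn4 (1.55 to 3.47 against 0.784 to 1.31 CPM) did not overlap between hosts (adjusted p of 0.933 for each in edgeR), as 3.73% of all genes did not. The abundant Msln (476 to 549 against 350 to 538 CPM) and Wt1 (3.98 to 15.4 against 5.55 to 10.8 CPM) overlapped. The summed mesothelial list was at 485 to 569 CPM in WT and 364 to 547 CPM in C3-/- tumors. With the mean mesothelial level as a covariate, an alternative added after the values were seen, 4 of 9 log2 fold changes were below 0, the median over the 9 genes was 0.005, and Plau was at -0.09, F2r at -0.29, Plat at -0.24 and F2rl1, farther from 0 than without the covariate, at -0.41. The same covariate moved C3, the deleted gene, from -1.42 to -1.03. Since the mesothelial markers themselves had log2 fold changes below 0, that fit cannot separate their level from host genotype. No covariate for liver transcripts was fitted.

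The levels of the 9 genes were compared from tumor to tumor, and no pair of genes passed the adjusted test of correlation. WT 1 was the lowest tumor for F3, Procr and Plaur, and WT 3 the highest for F3, Procr, Plau and Plaur. C3-/- 1 was the lowest for Plat, F2r and F2rl1. Of 36 pairs of genes, 29 had a positive Pearson's r over the 8 tumors (median 0.397, range -0.69 to 0.88), 7 had an unadjusted permutation p below 0.05 and 0 an adjusted one. Procr and Plaur had the highest r, 0.88 (exact permutation p = 0.00196, adjusted 0.0706, n = 8), with Spearman's rho 0.881 (exact permutation p = 0.00724, adjusted 0.185, n = 8). Without WT 1 and WT 3, r for Procr and Plaur was 0.676, and over deviations from the genotype means it was 0.903. F3 and Plau had r = 0.812 (exact permutation p = 0.00962, adjusted 0.157, n = 8; rho 0.833, exact p = 0.0154, adjusted 0.185), which was 0.804 without those tumors. F3 and Plaur had r = 0.773 (exact permutation p = 0.026, adjusted 0.184, n = 8) and rho = 0.833 (exact permutation p = 0.0154, adjusted 0.185). Without WT 1 and WT 3, the ends of the F3 range, r for F3 and Plaur was 0.163. Tfpi and Plau had r = 0.811 (exact permutation p = 0.0174, adjusted 0.157, n = 8). Over deviations from the genotype means that pair had r = 0.919 (exact permutation p = 0.00335, adjusted 0.0603).

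**Figure D4:**
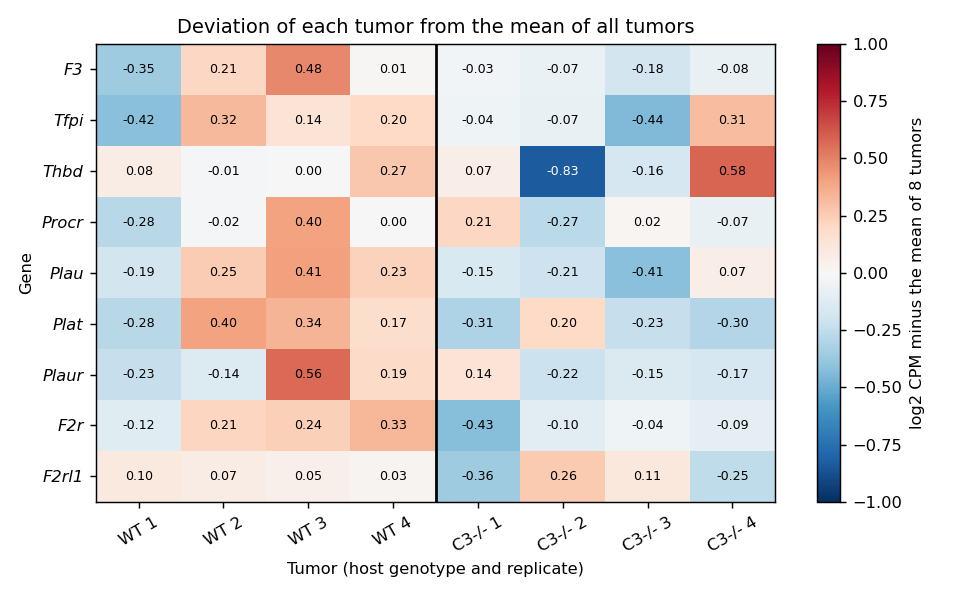
Each cell is the log2 CPM of a gene in a tumor minus that gene's mean over the 8 tumors, red above and blue below, with WT hosts left of the black line. WT 1 is blue for 7 of the 9 genes, and WT 3 is red or at 0 for all 9.

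Among 81 relations between the 9 genes and 9 cell type marker lists, chosen after values were seen, 7 had an unadjusted permutation p below 0.05 and 2 an adjusted one by Pearson's r, 0 by Spearman's rho. Thbd correlated with the mean log2 level of fibroblast markers at r = 0.957 (exact permutation p = 0.000645, adjusted 0.0301, n = 8) and rho = 0.833 (exact permutation p = 0.0154, adjusted 0.312, n = 8). The relation gave r = 0.954 within genotypes and 0.801 without C3-/- 2 and C3-/- 4, the tumors at the ends of the Thbd range. Summed fibroblast markers were at 7340 to 10900 CPM in WT tumors, and at 4380 CPM in C3-/- 2 and 11200 CPM in C3-/- 4. Thbd, known as a gene of endothelial cells, had r = 0.83 with endothelial markers (exact permutation p = 0.00446, adjusted 0.12, n = 8). Its rho there was 0.69 (exact permutation p = 0.0694, adjusted 0.449), and r was 0.56 without the same tumors. With macrophage markers Thbd had r = 0.716 (exact permutation p = 0.0406, adjusted 0.47, n = 8). Tfpi had r = 0.751 with endothelial markers (exact permutation p = 0.0369, adjusted 0.47, n = 8). Its rho was 0.881 (exact permutation p = 0.00724, adjusted 0.312), and r was 0.857 without C3-/- 2 and C3-/- 4.

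F2rl1 correlated inversely with macrophage markers at r = -0.931 (exact permutation p = 0.000744, adjusted 0.0301, n = 8) and rho = -0.857 (exact permutation p = 0.0107, adjusted 0.312, n = 8). It was at -0.964 within genotypes and -0.824 without C3-/- 1 and C3-/- 2. F2rl1 also had negative r with markers of neutrophils (-0.671), fibroblasts (-0.659), endothelial cells (-0.572) and skeletal muscle (-0.541). With acinar (-0.318) and mesothelial (-0.134) markers r was negative too, and with hepatocyte (0.03) and tumor epithelium (0.19) markers it was positive. None of these had an adjusted p below 0.05. Summed macrophage markers were at 1110 CPM in C3-/- 1, where F2rl1 was lowest, and at 500 CPM in C3-/- 2, where it was highest. Plat had r = -0.792 with skeletal muscle markers (exact permutation p = 0.0384, adjusted 0.47, n = 8; rho -0.667, exact p = 0.0831, adjusted 0.449; r = -0.703 without WT 3 and C3-/- 2), and with the muscle level as a covariate its log2 fold change was -0.24. Plau had r = 0.782 with mesothelial markers (exact permutation p = 0.0285, adjusted 0.47, n = 8; rho 0.833, exact p = 0.0154, adjusted 0.312) and r = 0.565 within genotypes.

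**Figure D5:**
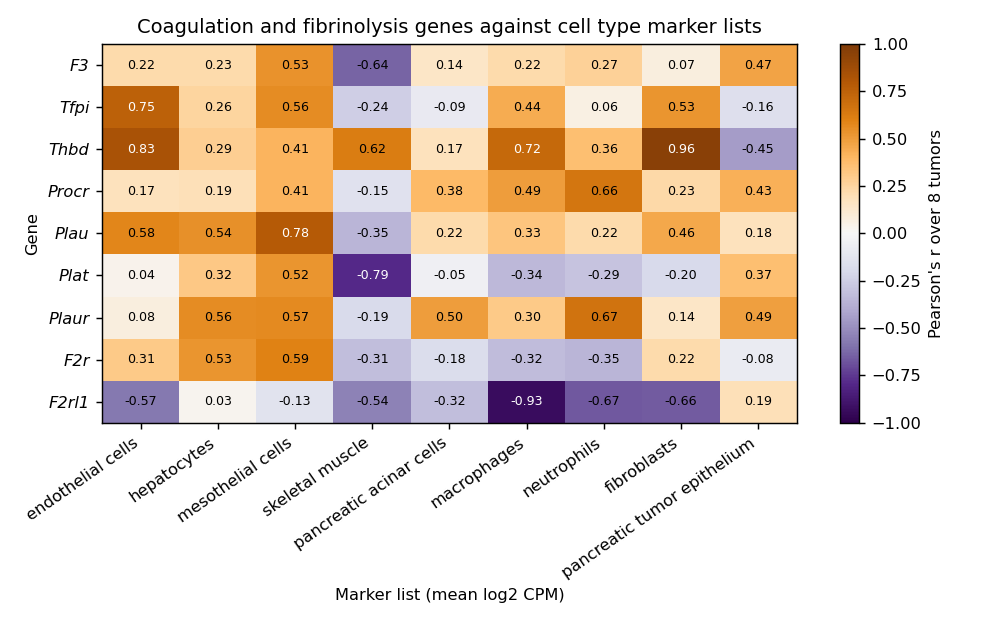
Pearson's r over the 8 tumors between log2 CPM of each gene (rows) and the mean log2 CPM of each cell type marker list (columns), orange for positive and purple for negative. The extremes are Thbd with fibroblasts at 0.96 and F2rl1 with macrophages at -0.93.

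The protein-coding genes most like each of the 9, by Pearson's r of log2 CPM over 8 tumors among 14012 genes, are given as a description, since the highest r of so many genes is high in any set of 8 tumors. Tfpi was nearest to Serping1 (r = 0.957), which encodes the C1 inhibitor, and to Tsku (0.944). Plau was nearest to Prnp (0.976) and Ndrg4 (0.974), and Plaur to Cript (0.989) and Serpinb6a (0.988). Procr was nearest to Lsm12 (0.985) and Mdp1 (0.983), F2r to Sh3glb1 (0.977) and Car12 (0.971), and F2rl1 to Fut8 (0.962) and Cep70 (0.957). F3 was nearest to Zfp711 (0.961) and Pxdc1 (0.956), Thbd to Mamstr (0.967) and Pabpc4l (0.964), and Plat to Lrrc8e (0.956) and Phf7 (0.942).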

How the data were processed

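Tumor RNA was poly-A selected and sequenced as read pairs. The methods of the study name STAR and HTSeq on mm39, while the submitters' processing notes list HISAT2 2.0.5 and DESeq2 1.20.0, and the strand setting is not given in the sources used here. The authors deposited raw counts per gene, a normalized signal (each count divided by a size factor of its tumor) and FPKM, whose scale also follows those size factors. None of the 9 genes overlaps another gene. The authors' group means, fold changes and p-values from their own comparison were not used.

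Counts were tested with edgeR 4.0.16 in R 4.3.3 (filterByExpr with a minimum count of 10, TMM, quasi-likelihood F-test, Benjamini-Hochberg over 16610 genes), with adjusted p below 0.05 as the call. CPM are TMM-normalized. DESeq2 1.42.0 and limma 3.58.1 served as alternatives, with log2(FPKM + 0.1) or log2(FPKM + 1) for limma. The deposited FPKM gave the order of levels. Marker levels were means of log2(CPM + 0.1). The scripts were tested on simulated data.

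The 9 genes and all lists were chosen with earlier results of these data known. Named genes were the 9, C3 and pathway genes with an unadjusted p below 0.05 in edgeR's main fit or DESeq2. The 2 most similar genes per gene and markers that stand apart beside a result were also named. Some planned results are not reported here. Promoter windows are RefSeq's, on GRCm38.p6. Counts are of read pairs without molecular identifiers. SEs and intervals come from the edgeR fit and include the spread between tumors.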

Additional observations from a re-analysis of the deposited data

Results flagged for a closer look

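In 54 groups of 4 tumors tested for a tumor that stands apart by Dixon's criterion, 6 were found, where chance gives about 1 in 20. Plat was at 9.3 log2 CPM in C3-/- 2, and at 8.8 to 8.88 in the other C3-/- tumors. F2r was at 8.42 log2 CPM in C3-/- 1, against 8.75 to 8.81 in the others. The log2 ratio of Plau to Plat was -3.84 in WT 2, against -3.63 to -3.59 in the other WT tumors. Summed hepatocyte markers were at 652 CPM in WT 2, against 70.3 to 155 CPM in the other WT tumors, and at 173 CPM in C3-/- 1, against 40.9 to 51.8 CPM. Hp alone made 635 of the 652 CPM and 147 of the 173 CPM, and Alb was at its lowest WT level in WT 2 (0.151 CPM) and its highest in WT 4 (35.7 CPM). Summed pancreatic acinar markers were at 2280 CPM in C3-/- 1, against 42.1 to 69.6 CPM in the other C3-/- tumors. With the acinar level as a covariate, the log2 fold change of F2r was -0.46. Acinar markers and F2r had r = -0.18 over the 8 tumors (exact permutation p = 0.684, adjusted 0.818, n = 8; rho -0.262, exact p = 0.536, adjusted 0.796), -0.78 within genotypes and 0.323 without C3-/- 1 and C3-/- 4.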

How the results depend on the processing

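Under 13 alternatives and with each of 8 tumors left out in turn, 0 of the 9 genes and 0 of the pathway genes were called. Of the 9 genes, 9 had a log2 fold change below 0, 7 to 9 with a tumor left out, 8 with the acinar covariate and 4 with the mesothelial covariate, which was added after the data were seen. That covariate reversed F3 (0.005), Tfpi (0.32), Thbd (0.20), Procr (0.18) and Plaur (0.05), and the acinar covariate reversed Procr (0.008). The mesothelial covariate also moved C3, the deleted gene, to -1.03. All 4 tested mesothelial markers had log2 fold changes below 0, so that fit cannot separate mesothelial level from host genotype. With a tumor left out, the median of the 9 ran from -0.33 (without WT replicate 1) to -0.11 (without WT replicate 3), F3 from -0.33 to -0.06, Tfpi from -0.26 to -0.02, Plaur from -0.33 to -0.04, F2rl1 from -0.22 to -0.01, Thbd from -0.35 to 0.11, Procr from -0.16 to 0.073 (0.01 without C3-/- replicate 2), Plau from -0.47 to -0.28, Plat from -0.46 to -0.25, F2r from -0.42 to -0.25 and C3 from -1.55 to -1.19. The log2 ratio of F3 to Tfpi ran from -0.15 to 0.065 (0.05 without WT replicate 3), Thbd to Procr from -0.35 to 0.054, Plau to Plaur from -0.27 to -0.06, F2r to F2rl1 from -0.31 to -0.12, and Plau to Plat from -0.17 to 0.093 (0.02 without C3-/- replicate 3). The cause was not tested. Over all genes, edgeR called 0, DESeq2 16, edgeR without C3-/- replicate 1 4, and edgeR without both WT replicate 4 and C3-/- replicate 1 also 4. DESeq2 called C3, at -1.42. The intervals of the 9 genes leave room for means from 0.602 to 1.38 times the WT level.

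With the replicate number as a replicate block, 0 of the 9 genes were called and 1 had an unadjusted p below 0.05, beside 4.11% of all genes. Residuals of same-numbered tumors correlated at -0.03, 0.491, -0.356 and 0.594. Differently numbered tumors were not compared, so these values cannot decide whether the numbers pair the tumors.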
